A study of Mus musculus with 2 samples.

Results

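The miR-29 family comprises 4 of the 2202 miRNA genes counted in small-RNA libraries of C2C12 cells. They were taken by gene name as Mir29a, Mir29b-1, Mir29b-2 and Mir29c, by a rule that has no threshold on a measured value. C2C12 is a mouse myoblast line, here from ATCC, that was raised from injured thigh muscle of the C3H strain and can be made to form myotubes by lowering serum. The libraries were made from total RNA, hold RNA below 30 nucleotides, and are 2 biological replicates of 1 group from the same line. The labels give no treatment, time or stage of culture, so no contrast between conditions exists, and the values describe 1 line rather than muscle tissue. In bulk RNA of this kind, fewer cells with a miRNA and less of it per cell cannot be told apart.

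miR-29 is known as a repressor of extracellular matrix genes, among them the fibrillar collagens, elastin and fibrillin, and of the de novo DNA methyltransferases Dnmt3a and Dnmt3b. In C2C12 cells it has been described as a factor that rises during differentiation and represses Yy1, which in turn holds the Mir29b-2/Mir29c locus down in myoblasts. A miRNA hairpin is cut into a 5p and a 3p strand. In the miR-29 family the 3p strand is the one known to act on these targets, through its seed.

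The mature strands are shown because the family's reads can be told apart only where they differ. They come from RefSeq (GRCm38.p6), which held all 4 genes, and are written 5′ to 3′ with the seed, bases 2 to 8, in capitals.
miR-29a-3p: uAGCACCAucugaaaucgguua
miR-29b-3p: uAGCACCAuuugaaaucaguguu
miR-29c-3p: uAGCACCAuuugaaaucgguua
miR-29a-5p: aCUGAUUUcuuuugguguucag
miR-29b-1-5p: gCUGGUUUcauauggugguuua
miR-29b-2-5p: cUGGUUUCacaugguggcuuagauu
miR-29c-5p: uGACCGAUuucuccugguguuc

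The 3p strands shared 1 seed, AGCACCA, which no other mature miRNA among 1679 names in the table carried. Counted from the 5′ end, with the base of miR-29a-3p first, miR-29c-3p differed from it by C10U alone. miR-29b-3p differed from miR-29a-3p by C10U, G18A, U21G and A22U and is 1 base longer, 23 against 22 bases. It alone ends in AGUGUU, an element known from human cells to direct this miRNA to the nucleus. The 5p strands fell into 4 different seeds. The 5p strands of the miR-29b copies shared at most 9 bases in a row, and their annotated starts are offset, so that their seeds differ as well.

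The genes lie in 2 clusters. On mm10, Mir29a is at chr6:31062660-31062747 and Mir29b-1 at chr6:31063023-31063093, both on the minus strand and 275 bases apart. Mir29a overlaps no other annotated gene, and Mir29b-1 shares 2 bases with the lincRNA Gm27019. The other cluster is on the plus strand, with Mir29b-2 at chr1:195037040-195037120 and Mir29c at chr1:195037547-195037634, 426 bases apart. Both of its hairpins lie inside an annotated exon of the non-coding host gene A330023F24Rik on their own strand. On the opposite strand, both lie inside a UTR of Cd46, a gene for a complement regulator. The chromosome 6 hairpins are shown with the mature 3p strand in capitals, since this cluster held nearly all reads assigned to miR-29 genes.
Mir29a hairpin: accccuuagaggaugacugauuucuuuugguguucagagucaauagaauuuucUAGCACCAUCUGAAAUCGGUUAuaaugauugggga
Mir29b-1 hairpin: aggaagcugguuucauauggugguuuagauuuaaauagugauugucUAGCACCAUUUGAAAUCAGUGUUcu

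miR-29b is encoded by both clusters. Mir29b-1 and Mir29b-2 share a stretch of 25 bases that contains the whole mature 3p strand. It is shown in capitals with its flanks, which are all that separates these 3′ parts of the hairpins.
Mir29b-1, chr6:31063023-31063052, minus strand: uugUCUAGCACCAUUUGAAAUCAGUGUUcu
Mir29b-2, chr1:195037086-195037115, plus strand: guaUCUAGCACCAUUUGAAAUCAGUGUUuu

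The libraries held 27661907 and 15025315 reads on the strand of a miRNA gene, in replicates 1 and 2. Mir21a alone took 23.1% of these in replicate 1 and 53.5% in replicate 2, and so shifts every level given per library total. Levels are given as counts per 1000000 gene-strand reads (CPM). Among 7 markers of the skeletal muscle lineage, 3 reached 1 CPM in both libraries, with Mir206 far ahead at 2559 and 1028 CPM, while Mir1a-1, Mir133a-1 and Mir133a-2 were at 0. The copies of Mir1a share a stretch of 28 bases and those of Mir133a one of 31, and all 6 neuronal markers also share windows of 22 bases with another miRNA gene, so their low counts do not give the level of the mature miRNAs. The muscle markers summed to 2651 CPM in replicate 1 and 1049.8 CPM in replicate 2. Blood markers summed to 220 and 126 CPM, nearly all from Mir142, and the endothelial Mir126a stood at 213 and 134 CPM. Epithelial markers summed to 12.4 and 8.45 CPM, the hepatocyte miRNA Mir122 had 3.90 and 1.26 CPM, and markers of heart and neurons did not reach 1 CPM in both libraries. The part of these markers in the miR-29 levels was not tested.

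Mir29a dominated the reads assigned to the family and was among the most abundant miRNA genes of these cells. It was counted 529739 times in replicate 1 and 152180 times in replicate 2, which is 19151 and 10128 CPM. The mean was 14639 ± 6379.7 CPM (SD, n = 2), and the gene ranked 10 in each library. A small-RNA read covers a mature strand whole, so levels were not divided by hairpin length. Counting error was small beside the spread between the libraries, with exact 95% Poisson intervals of 19099 to 19202 CPM and 10077 to 10179 CPM.

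The other members had far fewer assigned reads. Mir29c, the partner of Mir29b-2 on chromosome 1, had 5489 and 2725 reads, or 198 and 181 CPM, with a mean of 189.9 ± 12.1 CPM (SD, n = 2). Mir29b-1 had 6137 and 1997 reads, or 222 and 133 CPM, with a mean of 177 ± 62.9 CPM (SD, n = 2). Mir29b-2 had 458 and 159 reads, or 16.6 and 10.6 CPM, with a mean of 13.6 ± 4.22 CPM (SD, n = 2). All 3 had fewer reads per library than Mir29a. By rank in replicates 1 and 2, Mir29b-1 was number 112 and 119 and Mir29b-2 number 199 and 195.

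By assigned reads the order of the levels was therefore Mir29a, then Mir29c and Mir29b-1, then Mir29b-2. Reads that fit both miR-29b copies are in no gene's count, so this order does not rank mature miR-29b. Mir29c and Mir29b-1 did not differ beyond their spread. Mir29b-1 was the higher of this pair in replicate 1, at 1.12 times Mir29c (exact 95% interval 1.08 to 1.16), and the lower in replicate 2, at 0.733 times (0.691 to 0.777). The remaining steps were the same in both libraries. All 4 genes reached 1 CPM in both libraries, as did 320 of all 2202 genes (14.5%). The mean levels of Mir29c and Mir29b-1 lay above, and that of Mir29b-2 below, the median of 43.9 CPM over those 320 genes.

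**Figure D1:**
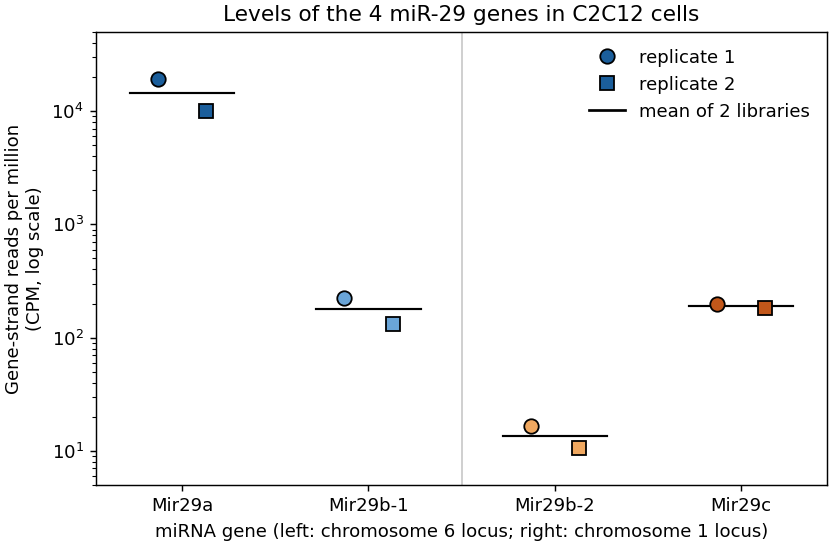
Levels of the miR-29 genes in CPM (log axis), with a circle for replicate 1, a square for replicate 2 and a line at their mean. Mir29a lies at 19151 and 10128 CPM, Mir29b-1 and Mir29c lie between 133 and 222 CPM, and Mir29b-2 at 16.6 and 10.6 CPM.

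Together the 4 genes took 1.96% of the gene-strand reads in replicate 1 (exact 95% interval 1.95 to 1.96) and 1.05% in replicate 2 (1.04 to 1.05). The mean was 1.502% ± 0.646 (SD, n = 2). Mir29a alone made up 97.8% of the reads assigned to the 4 genes in replicate 1 and 96.9% in replicate 2. Reads that map to several places are in no gene's count, so these are shares of assigned reads. All intervals here cover counting error of reads only. No molecular identifiers tell amplified copies of a molecule apart, so even this error may be understated.

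The chromosome 6 cluster held almost all reads assigned to the family. It summed to 19372 and 10261 CPM, a mean of 14817 ± 6443 CPM, against 215 and 192 CPM, a mean of 203 ± 16.3 CPM, for the chromosome 1 cluster (SD, n = 2 each). The ratio of the Mir29a/Mir29b-1 cluster to the Mir29b-2/Mir29c cluster was 90.1 in replicate 1 (exact 95% interval 87.8 to 92.5) and 53.5 in replicate 2 (51.5 to 55.5). A two-sided exact permutation test paired within the 2 libraries gave p = 0.5, the smallest it can give, so it cannot pass the threshold of 0.05. The summed assigned reads of the clusters, in CPM, did not overlap in these libraries. Reads that fit both miR-29b copies are in neither sum, so the ratio is one of assigned reads only.

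Both members of the chromosome 6 cluster had more assigned reads than their counterparts, by unequal factors. Mir29a exceeded Mir29c 96.5-fold in replicate 1 (94.0 to 99.1) and 55.8-fold in replicate 2 (53.8 to 58.0). Mir29b-1 exceeded Mir29b-2 13.4-fold in replicate 1 (12.2 to 14.8) and 12.6-fold in replicate 2 (10.7 to 14.9). In assigned reads, the gap between Mir29a and Mir29c was wider than that between the miR-29b copies in each library. The ratio of the copies varied less between the libraries. Because the copies are counted without the reads that fit both, these gaps are unlike measures, and their order is not read further.

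Within each cluster the miR-29b gene had fewer assigned reads. A read that fits both miR-29b copies is in no gene's count, so these ratios do not compare the mature miRNAs. Mir29a exceeded Mir29b-1 by 86.3-fold in replicate 1 and 76.2-fold in replicate 2. Mir29c exceeded Mir29b-2 by 12.0-fold in replicate 1 and 17.1-fold in replicate 2. Mir29b-1 and Mir29b-2 together made up 1.22% of the reads assigned to the family in replicate 1 and 1.37% in replicate 2.

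**Figure D2:**
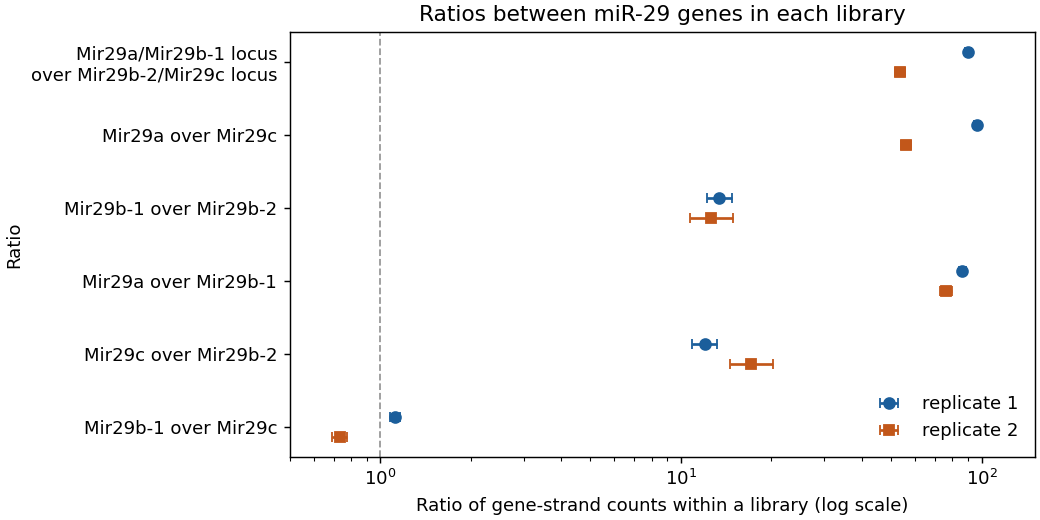
Ratios of gene-strand counts between miR-29 genes and clusters within each library (log axis), with exact 95% intervals for counting error; the dashed line marks 1. Mir29a over Mir29c stands at 96.5 and 55.8, Mir29b-1 over Mir29b-2 at 13.4 and 12.6, and Mir29b-1 over Mir29c falls on either side of 1.

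These shares do not depend on how the libraries are scaled, and 3 of them were compared between the libraries by two-sided Fisher's exact tests, adjusted over the 3 (Benjamini-Hochberg). The share of the family on the chromosome 6 cluster was 98.9% in replicate 1 and 98.2% in replicate 2, a difference of 0.739 percentage points (adjusted p = 1.47e-107, Fisher's exact test). The share of Mir29b-1 in its cluster was 1.15% in replicate 1 and 1.30% in replicate 2 (adjusted p = 2.99e-06, Fisher's exact test). The share of Mir29b-2 in its cluster was 7.70% in replicate 1 and 5.51% in replicate 2 (adjusted p = 0.000127, Fisher's exact test). All 3 differences exceeded counting error. The tests compare these libraries and not conditions.

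Where reads of the duplicated miR-29b can be placed was described from the hairpin sequences. Each hairpin was divided into overlapping windows of 22 bases, and each window was looked up in all annotated miRNA genes that do not overlap the gene itself, on both strands. All 67 windows of Mir29a occurred in that gene alone. Of 50 windows of Mir29b-1, 45 were its own, and of 60 windows of Mir29b-2, 56 were its own. Mir29c had 66 of 67.

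The shared windows overlap the 3p strand. In Mir29b-1 they start at bases 45 to 48 of the hairpin, where the mature 3p strand runs from base 47 to base 69, and a further one at base 42 is shared with Mir29c. In Mir29b-2 they start at bases 50 to 53, where the 3p strand runs from base 52 to base 74. The longest stretch in common was 25 bases between the miR-29b copies, 22 between Mir29b-1 and Mir29c, 19 between Mir29b-2 and Mir29c, 14 between Mir29a and Mir29c, and 11 between Mir29a and either miR-29b gene. Both 22-base windows that lie wholly within the mature 3p strand are thus common to the copies, while every window of the 5p strands occurred in 1 gene. Places outside the miRNA genes were not searched. When 1 mismatch was allowed, the windows found in 1 gene numbered 63 for Mir29a, 39 for Mir29b-1, 51 for Mir29b-2 and 59 for Mir29c. The matches then also linked Mir29a with Mir29c.

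**Figure D3:**
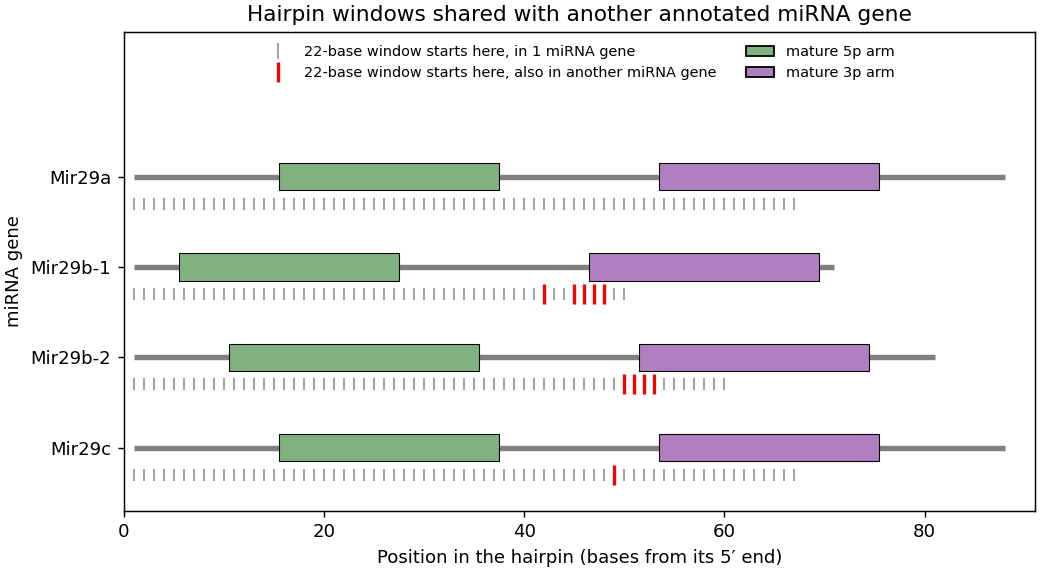
Hairpins of the miR-29 genes with their mature 5p and 3p strands as boxes and the starts of 22-base windows as ticks, against the position in bases from the hairpin's 5′ end. Red ticks mark windows found in another miRNA gene as well, 5 in Mir29b-1, 4 in Mir29b-2, 1 in Mir29c and none in Mir29a, and they lie near the start of the 3p strand.

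The tables have a row for reads that mapped to several places, with 18382947 reads in replicate 1 and 5599235 in replicate 2, and this row names no gene. Across the annotation, 297 genes had no window of their own, and 5 of these had any read, 55 in replicate 1 and 18 in replicate 2 in sum. Of the 735 genes with some windows shared, the class of Mir29b-1, Mir29b-2 and Mir29c, 135 had a read (18.4%), and they held 2.63% of the gene-strand reads in replicate 1 and 1.51% in replicate 2. Of the 1170 genes whose windows all occurred in 1 gene, Mir29a among them, 664 had a read (56.8%). Counts on Mir29b-1 and Mir29b-2 are therefore given as reads that were assigned to these hairpins, and the level of mature miR-29b-3p cannot be read from them. Nor do the tables separate the 5p from the 3p strand of any member.

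The split of miR-29b reads was set beside that of other duplicated miRNA genes. Of 43 pairs whose symbols differ only in the last number, 18 had both copies at 1 CPM or more in both libraries. Mir29b-1 held 93.1% of its pair's reads in replicate 1 (exact 95% interval 92.4 to 93.7) and 92.6% in replicate 2 (91.4 to 93.7). The mean share of the higher copy over the 18 pairs ranged from 52.2% to 99.5% with a median of 92.8%, and 8 pairs were more uneven than miR-29b, at 92.8%. The same copy led in both libraries in 16 of 18 pairs. By summed level miR-29b was number 10 of the 43 pairs. The highest were Mir125b-1 with 5341 and 3375 CPM beside Mir125b-2 with 353 and 215 CPM, Mir92-1 with 3962 and 2129 CPM beside Mir92-2 with 44.2 and 28.2 CPM, and Mir24-2 with 3403 and 1549.6 CPM beside Mir24-1 with 151 and 142 CPM. The miR-29b split thus lay near the middle of the 18 pairs. Pairs whose lower copy missed 1 CPM were left out, a filter that removes uneven pairs more readily. Among those left out, the pairs of Mir199a, Mir194, Mir128, Mir219a, Mir3074, Mir365, Mir129 and Mir135a were more uneven than miR-29b in both libraries. Mir194-2, for example, held 97.5% and 99.5% of its pair's reads. Mir218-1, at 84.0% and 76.1%, was less uneven, and the Mir1a pair had next to no reads. The middle place of miR-29b therefore holds only for the pairs that passed the filter. Reads that fit both copies are in none of these shares.

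**Figure D4:**
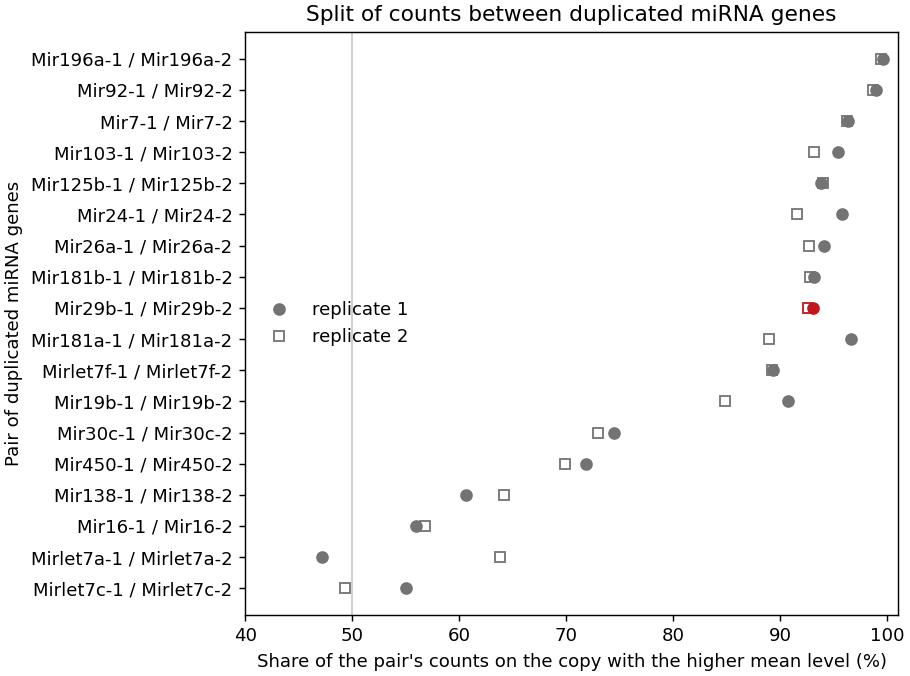
Share of a pair's gene-strand counts on the copy with the higher mean level (percent), for the 18 pairs of duplicated miRNA genes with both copies at 1 CPM or more, with filled circles for replicate 1 and open squares for replicate 2. The miR-29b pair, in red, stands at 93.1% and 92.6%, near the median of 92.8%.

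The libraries were then compared gene by gene. Counts were scaled by the trimmed mean of M-values (TMM, edgeR), each of 556 genes with at least 10 reads in sum was tested by a two-sided exact binomial test, and p-values were adjusted over all of them (Benjamini-Hochberg). Ratios are replicate 1 over replicate 2. Of the 4 miR-29 genes 3 passed the threshold of 0.05, against 41.5% of all tested genes. Toward replicate 1 it was 1 member (16.9% of all genes), and toward replicate 2 it was 2 members (24.6%). With 4 members, nothing particular to the family is read from these counts.

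Mir29a was nearly equal in both libraries after scaling. Its log2 ratio was 0.02 (counting SE 0.0042, adjusted p = 1.29e-06, exact binomial test), against 0.15 with DESeq2 size factors and 0.92 by library totals. Of 210 genes with a mean of at least 10 CPM, 13 had a smaller absolute log2 ratio. Mir29b-1 was lower in replicate 1, with a log2 ratio of -0.16 (counting SE 0.037, adjusted p = 8.44e-05, exact binomial test), and Mir29b-2 had a log2 ratio of -0.25 (counting SE 0.13, adjusted p = 0.127, exact binomial test). By library totals both signs turned, to 0.74 and 0.64, and with totals that leave out Mir21a that of Mir29b-1 was 0.01. Mir29b-1 no longer passed the exact binomial test with DESeq2 size factors (adjusted p = 0.652) or with totals that leave out Mir21a (adjusted p = 0.898).

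After TMM scaling, Mir29c had the largest difference of the 4 members. Its log2 ratio was -0.77 (counting SE 0.034, adjusted p = 7.11e-106, exact binomial test), or 0.587-fold, and 170 of the 210 genes had a smaller absolute ratio. Across these 210 genes the TMM log2 ratios had an SD of 0.84 and a median absolute value of 0.33. On this scale all 4 members lay within 1 SD of equality, but Mir29c lay beyond that median. Mir29c stayed lower in replicate 1 with DESeq2 size factors (-0.64) and with totals that leave out Mir21a (-0.60). By full library totals, however, Mir29c was higher there, at 0.13, the smallest ratio of the 4 members on that scale. The muscle markers Mir206, Mir133b and Mir486 were higher in replicate 1 by 0.42, 1.21 and 0.87 on the TMM log2 scale, the opposite direction to Mir29c. Mir486 stood at only 3.94 and 1.13 CPM. Of the 15 tested genes of the differentiation list below, 5 were higher and 7 lower in replicate 1. All tested genes gave 16.9% and 24.6%, but only 210 of these 556 reached a mean of 10 CPM, so the shares are not compared further. The part of any of these genes in the ratio of Mir29c was not tested.

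Levels were also taken per 1000000 gene-strand reads other than those of Mir21a. Mir29a had 24889 and 21789 on this scale in replicates 1 and 2. Mir29b-1 had 288 and 286, and Mir29b-2 had 21.5 and 22.8. Mir29c had 258 and 390.2. The miR-29b copies were thus almost level between the libraries, Mir29a was slightly higher in replicate 1, and Mir29c was higher in replicate 2.

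**Figure D5:**
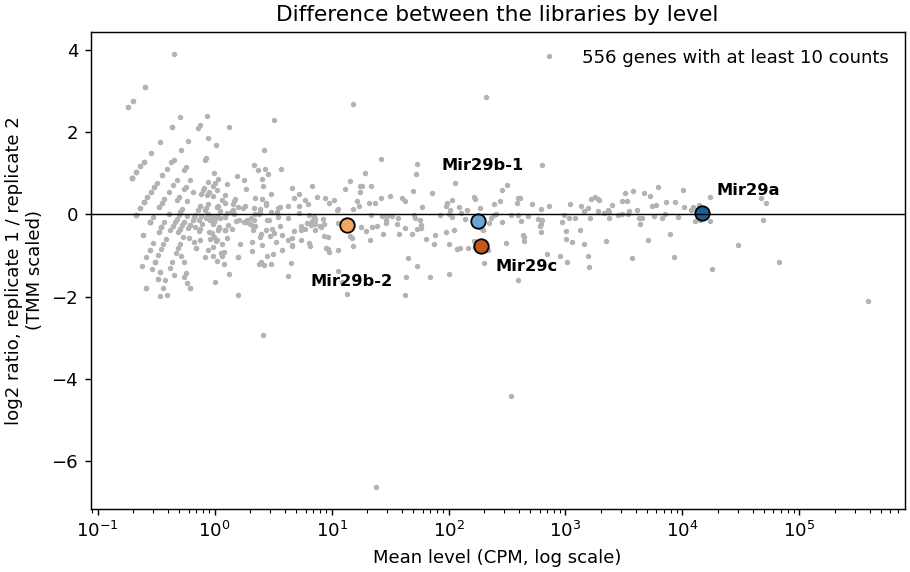
log2 ratio of replicate 1 over replicate 2 after TMM scaling against the mean level in CPM (log axis) for the 556 tested genes, with the miR-29 genes in colour. Mir29a lies at 0.02, Mir29b-1 at -0.16, Mir29b-2 at -0.25 and Mir29c at -0.77.

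The direction of calls over all genes rests on the scaling. TMM gave 94 genes higher and 137 lower in replicate 1, DESeq2 size factors 129 and 106, totals without Mir21a 138 and 94, and library totals 304 and 26. Against TMM these scalings moved every log2 ratio by 0.13, 0.17 and 0.90 toward replicate 1, in the same order.

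Genes closest in level to Mir29a and to Mir29c were found by the distance in log2(CPM + 1) over the 2 libraries. For Mir29a these were Mir17, of a cluster known to drive proliferation, at 17903 and 10609 CPM, Mir99b at 17599.7 and 9427 CPM, and Mir99a at 19215 and 8758 CPM. For Mir29c they were Mir345 at 199 and 179 CPM, Mir542 at 182 and 179 CPM, and Mir362 at 178 and 170.3 CPM. With 2 libraries this is a likeness in level only.

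Other miRNAs reported to act on collagen, matrix or fibrosis formed a list of 27 genes, of which 21 were detected in both libraries. Of 23 tested, 7 were higher and 9 lower in replicate 1, where all tested genes gave 16.9% and 24.6%. The calls measure counting error alone, which is relatively smaller for genes with more reads. Most tested genes of the list had a mean above 10 CPM, against only 210 of all 556. The shares called are therefore not compared further. The list's median log2 ratio was -0.09, equal at this precision to that over all 556 tested genes. Its highest members were Mir21a, known to promote fibrosis, at 230571 and 535157 CPM, the cartilage-enriched Mir140 at 15204 and 20507 CPM, and Mir26b at 14882 and 5318 CPM. Mir29a, at 19151 and 10128 CPM, lay above Mir140 and Mir26b in replicate 1 and between them in replicate 2.

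Other miRNAs reported to favour myoblast differentiation formed a list of 19 genes, of which 15 were detected. All 15 were tested, with 5 higher and 7 lower in replicate 1, beside 16.9% and 24.6% of all tested genes. Most of these 15 also had a mean above 10 CPM, so the same limit on comparing the shares applies. The list's median log2 ratio was -0.06, beside -0.09 over all tested genes. Mir378a, from an intron of a regulator of mitochondrial genes, led with 11666 and 6522 CPM. Mir322, tied to cell cycle exit, had 9199 and 4933 CPM, and Mir27b, which represses Pax3, had 5541 and 4583 CPM. In assigned reads, the mean of Mir29a was above that of each of the 19 genes. The list holds both copies of Mir24, Mir26a and Mir181a, and those of Mir1a and Mir133a, which were not detected. The copies of each share at least 25 bases, and reads that fit both are in no gene's count. The levels of these mature miRNAs beside miR-29a can thus not be read from the counts.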

How the data were processed

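The authors deposited whole-number read counts per miRNA gene for each library, in 3 columns without header that were read, from their layout, as either strand, gene strand and opposite strand. The deposited readme files name mm10 and GENCODE M21, and the labels link an adapter-trimming document. The sources used here do not name the aligner or the counter. The gene-strand column was used. Rows that name no gene held 49.7% (replicate 1) and 38.8% (replicate 2) of reads and stayed out of totals and tests.

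Levels are counts per 1000000 gene-strand reads on genes. At a count of 0, up to 3 reads, 0.108 and 0.200 CPM, are allowed. TMM factors (edgeR 4.0.16, R 4.3.3) came from genes with at least 10 reads, and ratios carry a prior count of 0.5. DESeq2 1.42.0 supplied size factors. Intervals are exact (Clopper-Pearson or Poisson, 95%), and Fisher's tests used SciPy 1.17.1. The binomial test was tested on simulated data. No genome sequence was used, so windows were searched among miRNA hairpins alone, not in the whole genome as planned. The family and the lists were chosen for description with earlier results of these data known, although membership itself goes by gene name. The text names the members, the 3 genes nearest to Mir29a and Mir29c in level, the 3 highest pairs and the 3 highest genes of each list. Alternatives were other scalings, count filters, denominators, strand columns and window lengths. The 1-mismatch search was added after the data were seen.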

Additional observations from a re-analysis of the deposited data

Results flagged for a closer look

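Reads that mapped to several places lie outside the gene counts and numbered 18382947 in replicate 1 and 5599235 in replicate 2, where a count of 0 would allow 3. They are 33.9 times the reads counted on the 4 miR-29 genes in replicate 1 and 35.7 times in replicate 2. How many of them belong to miR-29b was not tested. The opposite-strand column held 0 reads on the miR-29 genes in replicate 1 and 1 read in replicate 2, on Mir29a.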

How the results depend on the processing

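The share of the family in all counts depended on the denominator. It was 0.812% with all reads of the file as denominator and 2.40% with Mir21a left out of it, against 1.502% as reported. The log2 ratio of the libraries changed sign by full library totals for Mir29b-1 (0.74), Mir29b-2 (0.64) and Mir29c (0.13), and with totals without Mir21a for Mir29b-1 (0.012). With DESeq2 size factors Mir29b-1 no longer passed the test (-0.03, adjusted p = 0.652, exact binomial test), nor did it with totals without Mir21a (adjusted p = 0.898, exact binomial test). Mir29a kept its direction and its call under all 6 alternatives. The ratio of the clusters was 53.5 without replicate 1 and 90.1 without replicate 2, and its value, the shares within the family and the 3 Fisher tests were the same to the precision given with reads on either strand. Genes called between the libraries numbered 216 to 330 over the scalings and filters and 217 with either strand, against 231. Windows found in 1 gene stayed within 39 to 46 for Mir29b-1 and 51 to 56 for Mir29b-2 over the window lengths and with 1 mismatch. The number of shared windows did depend on the length. At 18 bases 11 windows of Mir29b-1, 8 of Mir29b-2 and 5 of Mir29c were shared, against 1, 1 and 0 at 25 bases. With 2 libraries the SD is imprecise, and p-values measure counting error alone.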
